A study of Mus musculus with 12 samples.

Results

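Transcripts of 10 genes that serve as markers of astrocytes were followed in cultured mouse spinal cord cells: S100b, Gfap, Aqp4, Clu, Slc1a2, Slc1a3, Fabp7, Gja1, Aldh1l1 and Glul. They were taken by gene symbol from a table of counts for 21030 genes, and all 10 were present and passed the filter on low counts. By their known biology they were parted into 5 genes of mature astrocytes (Gfap, S100b, Aqp4, Slc1a2 and Clu) and 5 that radial glia also express (Slc1a3, Fabp7, Gja1, Aldh1l1 and Glul). The cells came from wild-type C57BL/6 embryos at embryonic day 12 and were cultured for 48 hours in wells that all carried poly-D-lysine at 20 μg/ml. Beyond it, the wells held laminin at 1 μg/ml with wild-type myelin membranes at 10 μg/ml (laminin plus myelin), the myelin membranes (Myelin), the laminin (Laminin), or no further coat (PDL). Each coat had 3 RNA-seq libraries, numbered 1 to 3, which the labels call biological replicates without saying whether they came from separate litters, so the tests cover the variation among these wells and no more. In such bulk RNA, fewer cells of a type and less RNA per cell cannot be told apart.

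Radial glia are the progenitors that line the embryonic neural tube; in the spinal cord they give rise to neurons first and to astrocytes later. The switch to astrocytes is known to depend on Notch signalling, on the NFI and SOX9 transcription factors, and on cytokine signals that act through JAK kinases and STAT3. Several genes used to mark astrocytes are already active in radial glia, so that Gfap, S100b and Aqp4 are usually read as signs of a later state than Fabp7 or Slc1a3.

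The promoters of 8 of the 10 genes could be matched by symbol in the RefSeq table for GRCm38.p6, which gives the bases before each annotated start site. Those of S100b, Gfap and Slc1a3 are shown, since the first pair carried the difference between coats and Slc1a3 the difference between replicate numbers described below. The 250 bases upstream of the start site are written 5′ to 3′ on the strand of the gene. They span chr10:76253586-76253835 (plus strand) for S100b, chr11:102897201-102897450 (minus strand) for Gfap and chr15:8710808-8711057 (minus strand) for Slc1a3. The start sites are those of RefSeq, and the Gfap window lies inside the longer GENCODE span of the gene (102887336 to 102900912). Among the promoters not shown, those of Slc1a2 and Aldh1l1 also lie inside the GENCODE spans of their genes, and that of Fabp7 does in part. Capitals mark exact letter matches to TTCNNNGAA, the core bound by STAT factors, or to TGGGAA, the core bound by the Notch effector RBPJ, on either strand.
S100b: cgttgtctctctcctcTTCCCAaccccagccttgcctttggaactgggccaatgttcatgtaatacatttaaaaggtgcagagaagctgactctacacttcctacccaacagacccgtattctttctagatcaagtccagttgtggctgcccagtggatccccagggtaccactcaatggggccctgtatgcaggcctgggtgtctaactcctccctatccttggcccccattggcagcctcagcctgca
Gfap: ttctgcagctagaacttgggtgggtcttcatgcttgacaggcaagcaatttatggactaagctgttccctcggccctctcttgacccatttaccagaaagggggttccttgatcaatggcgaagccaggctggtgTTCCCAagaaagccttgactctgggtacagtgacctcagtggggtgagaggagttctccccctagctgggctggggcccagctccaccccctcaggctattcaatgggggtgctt
Slc1a3: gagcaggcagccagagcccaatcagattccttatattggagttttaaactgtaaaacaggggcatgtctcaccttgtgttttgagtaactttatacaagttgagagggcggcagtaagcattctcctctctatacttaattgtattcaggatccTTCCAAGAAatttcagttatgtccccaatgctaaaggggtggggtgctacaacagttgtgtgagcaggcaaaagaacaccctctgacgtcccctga
The RBPJ letters lay at -234 to -229 from the start of S100b and at -115 to -110 from that of Gfap, on the opposite strand in both. The STAT letters lay at -96 to -88 from the start of Slc1a3. Among the 8 promoters, 4 held the RBPJ letters (S100b, Gfap, Fabp7 and Aldh1l1), against 21.6% of 32851 promoters, and 1 held the STAT letters, against 7.02%. The 2 motifs share no bases in the windows shown. The palindrome bound by NFI factors, TTGGC and GCCAA with 5 bases between them, was in 0 of the 8 and in 0.0365% of all promoters. These matches describe the printed windows only.

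Compared per kilobase of exon, the 10 transcripts covered a wide range of levels. Fabp7, the fatty acid binding protein of radial glia, had the highest mean over the 12 libraries (97.1 CPM per kb, where CPM is the count scaled to a common library size). Slc1a2, the glutamate transporter GLT-1, followed at 60.8 and Glul, glutamine synthetase, at 46.1 CPM per kb. The ranges over libraries of Fabp7 (57.6 to 150.8) and Slc1a2 (53.2 to 69.2) overlapped, and that of Glul (37.1 to 52.6) lay just under that of Slc1a2. S100b (6.03, from 0.457 to 20.5) and Slc1a3 (5.10, from 3.28 to 7.56) came next and overlapped. The mean of S100b joins libraries with and without myelin. On PDL and Laminin it averaged 0.665 and 0.815 CPM per kb, under Clu (0.910 and 0.925) and Aldh1l1 (0.742 and 0.893). Clu (1.21), Aldh1l1 (1.02) and Gja1 (0.515) followed with overlapping ranges, then Gfap (0.229) and Aqp4 (0.0455 CPM per kb). The range of Gfap (0.0124 to 0.783) reached into those of Clu, Aldh1l1, Gja1 and Aqp4. Gfap, the intermediate filament of astrocytes, was counted 2 to 116 times per library and Aqp4, their water channel, 3 to 30 times, out of 36061511 to 45024091 counts in genes. The label thus held unevenly for the mature set, with 2 defining genes near the floor and Slc1a2 among the most abundant. Slc1a2 is known to be present on growing axons of the embryonic mouse spinal cord before it settles in astrocytes. Which cells held its transcript here was not tested. Pan-neuronal genes of a list of 12 summed to 8869 to 11760 CPM per library.

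S100b (chromosome 10, 76253853 to 76261159 on GRCm38), a calcium-binding protein of astrocytes that maturing oligodendrocytes also make, was the member with the largest difference between coats. It was at 8.93, 16.8 and 16.3 CPM on laminin plus myelin, at 8.86, 30.4 and 19.5 CPM on Myelin, at 0.763, 0.860 and 2.00 CPM on Laminin and at 0.678, 0.894 and 1.39 CPM on PDL, in replicates 1 to 3. All 6 libraries with myelin lay above all 6 without it. Gfap (chromosome 11, 102887336 to 102900912) did the same at a lower level. It was at 0.870, 1.52 and 1.64 CPM on laminin plus myelin, at 1.01, 3.30 and 2.08 CPM on Myelin, at 0.116, 0.101 and 0.207 CPM on Laminin and at 0.0521, 0.473 and 0.210 CPM on PDL. Among the libraries without myelin, PDL replicate 2 stood highest for Gfap with 18 counts. These were the only 2 of the 10 members whose libraries with and without myelin did not overlap. Of the 15737 genes tested, 0.426% had all 6 libraries with myelin above all 6 without it.

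**Figure D1:**
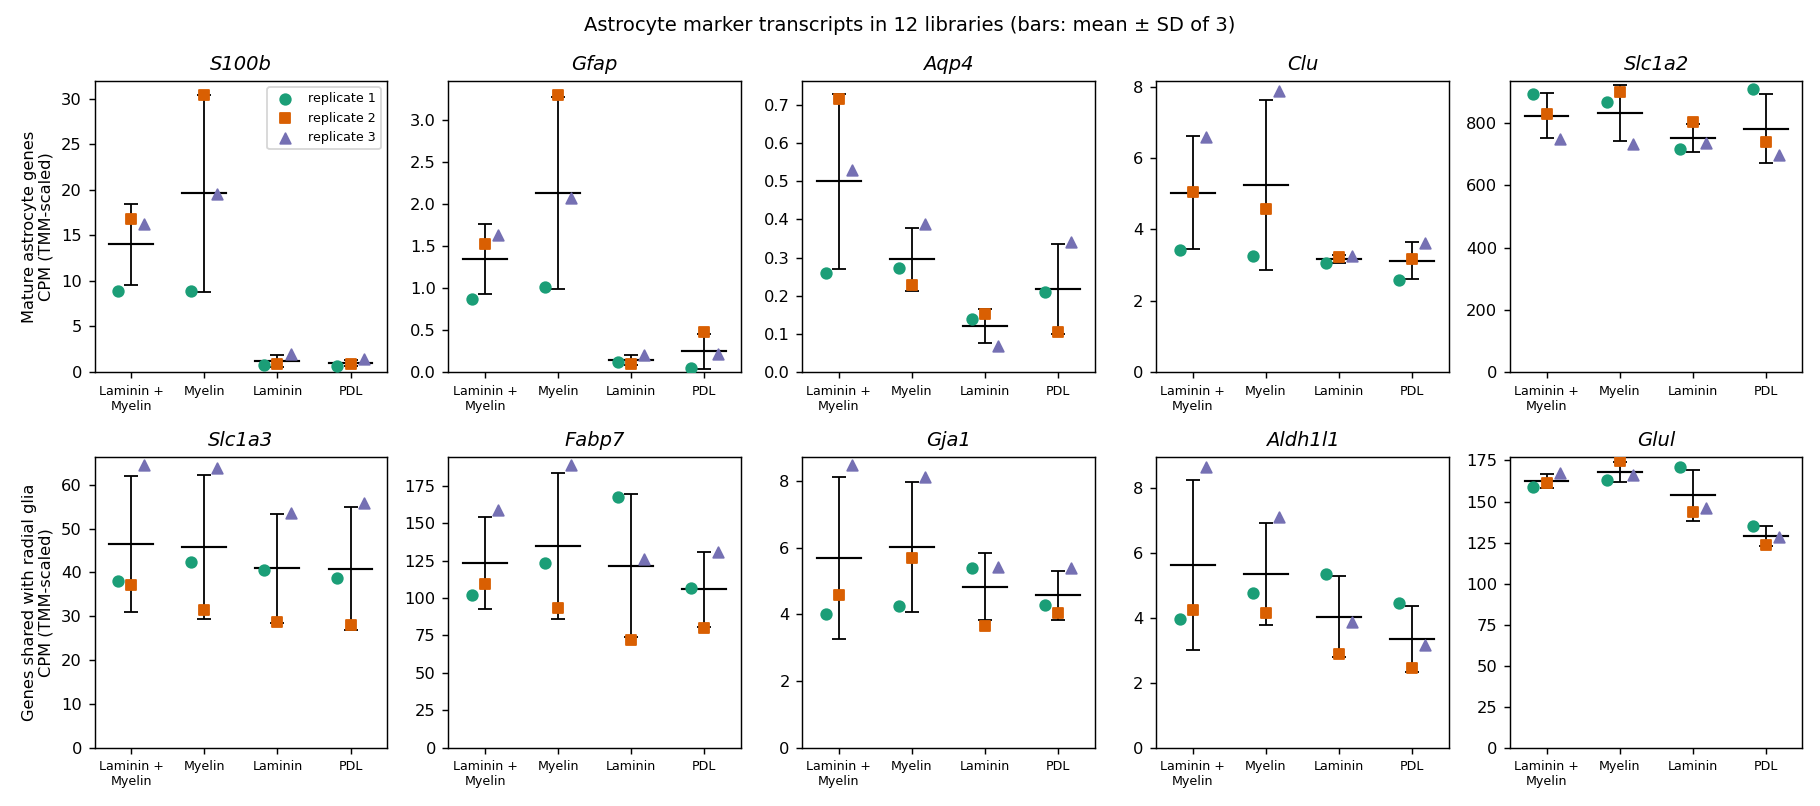
Level of each of the 10 genes in CPM (vertical axes, linear from 0) in the 12 libraries by coat, with the mean and SD of 3 libraries in black. S100b and Gfap separate the 6 libraries with myelin from the 6 without, while Slc1a3, Fabp7, Gja1 and Aldh1l1 overlap between coats and Glul is lowest on PDL.

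Averaged over laminin, 6 libraries with myelin against 6 without, S100b rose by 3.92 ± 0.37 on the log2 scale (SE; edgeR quasi-likelihood test, adjusted p = 0.00137). It was the 1 member called of 10, where 4 genes in all (0.0254% of those tested) were called higher and 0 lower. The call held without any 1 of the 12 libraries (adjusted p from 0.000265 to 0.0145). Gfap had a difference of 3.16 ± 0.46 that missed the threshold (edgeR adjusted p = 0.0624). Libraries with the same replicate number deviated together, and with the number as a block in the edgeR fit Gfap was called (3.16 ± 0.27, adjusted p = 9.29e-05), also without any 1 library. In that blocked fit 4 members were called higher, S100b, Gfap, Clu and Glul, where 3.03% of all genes were called higher and 5.60% lower.

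Against PDL alone, S100b rose on Myelin by 4.31 ± 0.54 (edgeR adjusted p = 0.0156) and Gfap by 3.10 ± 0.64 (edgeR adjusted p = 0.035). With Glul they were the 3 members called, where 0.146% of genes were called higher and 2.14% lower. The S100b call was lost without PDL replicate 1 or 2 or Myelin replicate 2 or 3 (adjusted p of 0.0617 to 0.139), and that of Gfap without 9 of the 12 libraries, up to 0.208 without Myelin replicate 2. With the block both were called without any 1 library. Where laminin was also present, the edgeR fit gave S100b 3.53 ± 0.52 (adjusted p = 0.096) and Gfap 3.21 ± 0.67 (adjusted p = 1.00) for laminin plus myelin against Laminin, and 0 members were called (3 at an unadjusted p under 0.05, and 2 called in DESeq2) where 0.0191% of genes were called higher. With the block both were called, S100b at 3.54 ± 0.28 (edgeR adjusted p = 9.64e-05) and Gfap at 3.21 ± 0.40 (edgeR adjusted p = 0.00659), where 0.0953% of genes were called higher and 0.00635% lower. The Gfap call was then lost without laminin plus myelin replicate 3 (adjusted p = 0.0894).

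The myelin difference did not pass a test for depending on laminin. The interaction was -0.78 ± 0.69 for S100b (edgeR adjusted p = 0.835) and 0.11 ± 0.83 for Gfap (edgeR adjusted p = 0.994), and 0 genes passed in edgeR with or without the block, 1042 having an unadjusted p under 0.05 without it and 3 passing in DESeq2. Laminin against PDL gave 0.30 ± 0.53 for S100b (edgeR adjusted p = 0.842) and -0.77 ± 0.72 for Gfap (edgeR adjusted p = 0.629). In the authors' deposited table, the log2 fold change of S100b was 4.31 for Myelin against PDL and 3.53 for laminin plus myelin against Laminin, with adjusted p-values of 8.93e-16 and 8.61e-11. For Gfap the authors' deposited table gave 3.11 and 3.21, with adjusted p-values of 0.00021 and 0.00195.

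**Figure D2:**
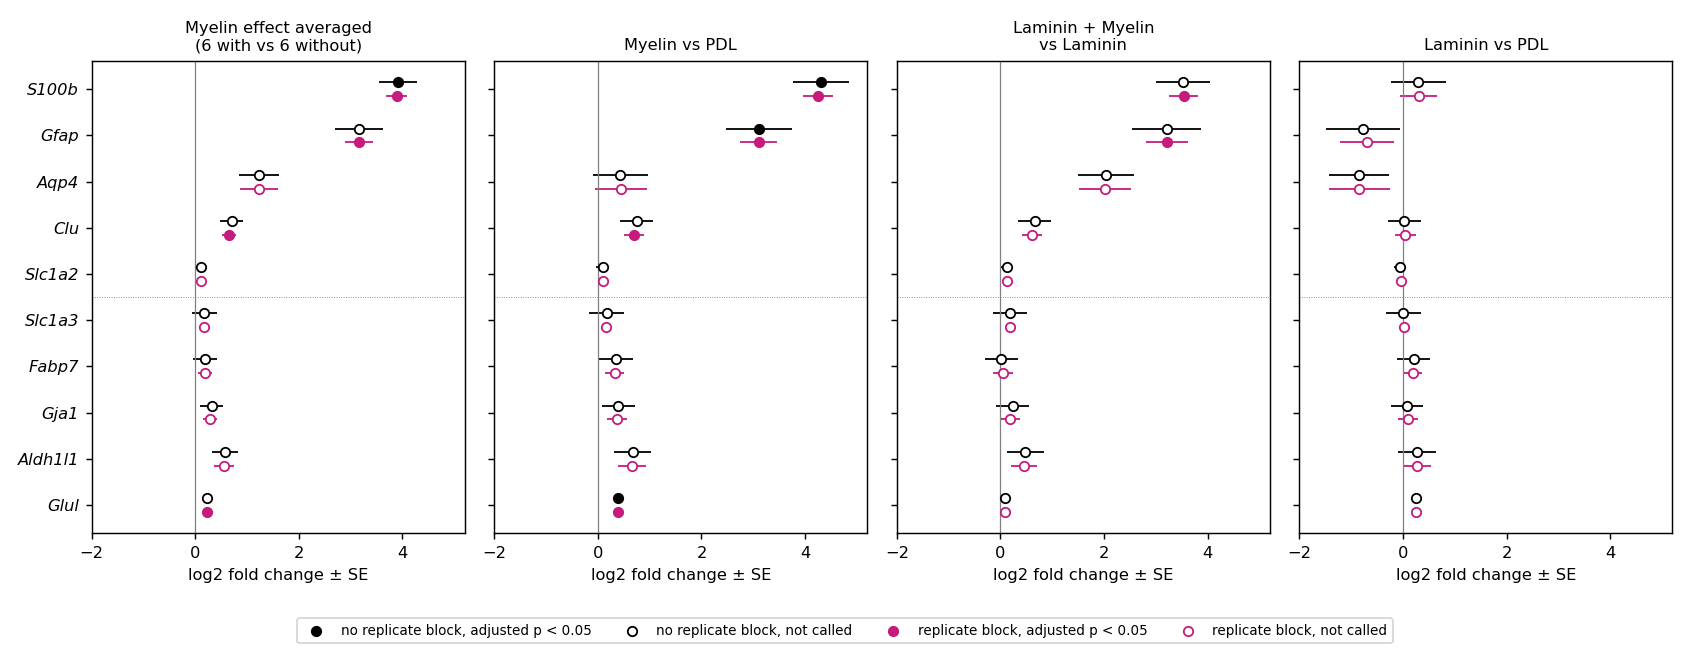
Log2 fold change ± SE (horizontal axes) of each gene in 4 comparisons, from edgeR without (black) and with (magenta) the replicate number as a block; filled points have an adjusted p under 0.05. S100b and Gfap lie above 3 in every comparison of coats with and without myelin, and no member is called for Laminin against PDL.

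S100b and Gfap moved together with transcripts of myelin. Over the 12 libraries, the genes with the log2 CPM most like S100b were Mbp and Mobp, which encode structural proteins of the myelin sheath, Plekhb1, E430025E21Rik and Gfap (Pearson r from 0.994 to 0.952). Those most like Gfap were Mal, a membrane protein of myelin, then S100b, Plekhb1, Mobp and Mbp (0.968 to 0.943). The 12 libraries fall into a set with and a set without myelin for all of these genes, so the likeness was also taken within each set. Within the 6 libraries with myelin, r was 0.995 between S100b and Mbp, 0.985 between S100b and Gfap and 0.991 between Gfap and Mbp. Within the 6 without, it was 0.911, 0.427 and 0.089 for the same pairs, where Gfap rested on 2 to 18 counts. Between S100b and Plekhb1 r was 0.992 with myelin and 0.594 without, and between S100b and Mobp it was 0.962 with myelin and -0.373 without. Between Gfap and Mal r was 0.808 with myelin, where Mal had 9 to 38 counts per library. Without myelin it was 0.886, where Mal had 0 to 7 counts. The libraries of each set share coats and replicate numbers, and these values carry no test.

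The size of the S100b difference between coats followed that of Mbp. Mbp was the gene most like S100b in these same libraries, so its share below restates that likeness and is no separate support. Taken between libraries with the same number, S100b on Myelin exceeded PDL by 8.18, 29.5 and 18.1 CPM, and on laminin plus myelin it exceeded Laminin by 8.17, 16.0 and 14.3 CPM. Mbp differed by 204.5, 720.6 and 417.3 CPM for Myelin over PDL and by 190.4, 365.3 and 328.7 CPM for laminin plus myelin over Laminin. In these 6 pairs the S100b difference was 4.00% to 4.37% of the Mbp difference, and that of Gfap 0.389% to 0.469%. The share was 3.23% to 4.02% for Mobp and 10.6% to 13.2% for Plekhb1, but 0.0969% to 0.241% for Mal, a 2.49-fold span against 1.09-fold for S100b. The low counts of Mal, 9 to 38 per library with myelin, limit its share. As a share of the Mbp level itself, S100b was at 3.81% to 4.36% in the 6 libraries with myelin and at 2.39% to 4.56% in the 6 without.

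**Figure D3:**
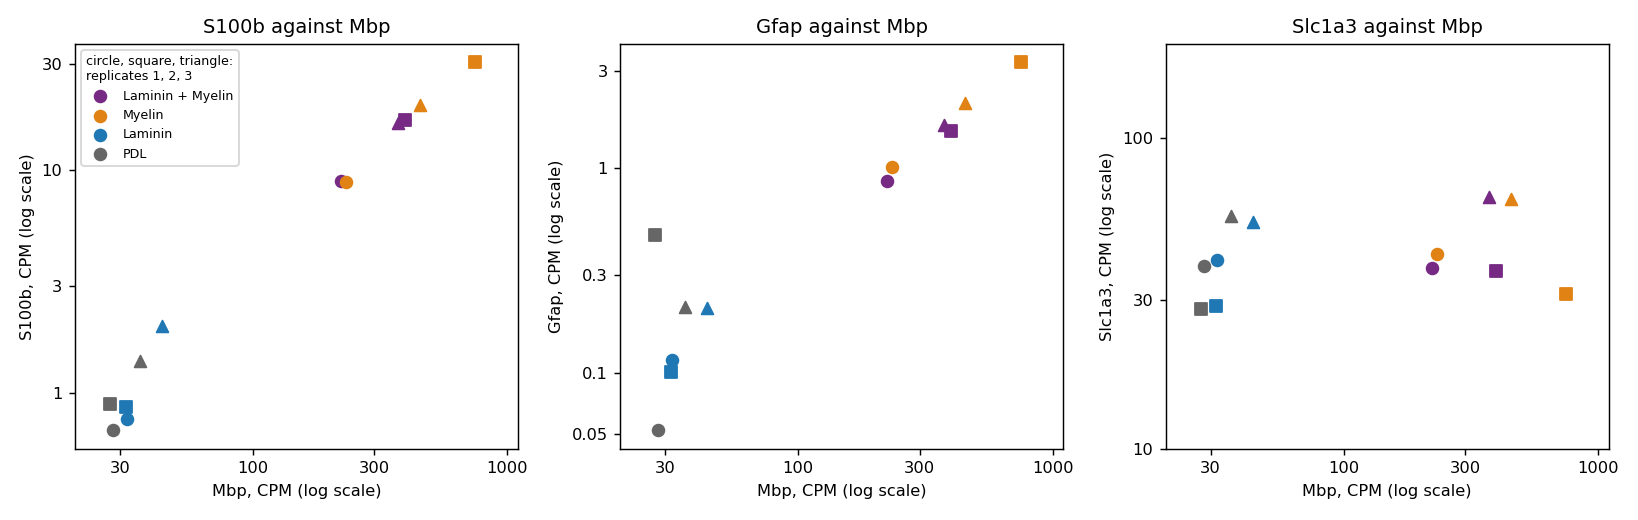
Levels of S100b, Gfap and Slc1a3 against Mbp in CPM, all axes on log scales, with coats by colour and replicate numbers by symbol. S100b and Gfap climb with Mbp through the 6 libraries with myelin, between 222 and 748 CPM of Mbp, while Slc1a3 spans 31.5 to 64.5 CPM in those libraries and 28.04 to 55.9 CPM in the others.

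Of a list of 16 tested genes of mature oligodendrocytes and myelin, 3 rose with myelin when averaged over laminin (Mobp, Plekhb1 and Mbp), and 13 had a value above 0 (median log2 difference 0.60, against -0.0026 over all genes). With the block, where 3.03% of all genes were called higher and 5.60% lower, 10 of them rose and 1 fell. It was Mog, a glycoprotein on the outer face of the sheath (-0.53 ± 0.10, edgeR adjusted p = 0.0147). Mog was at 4.31 to 5.26 CPM on laminin plus myelin, 5.12 to 6.34 CPM on Myelin, 5.39 to 6.35 CPM on Laminin and 7.51 to 11.9 CPM on PDL, and with the block it also fell on Laminin against PDL (-0.81 ± 0.14, edgeR adjusted p = 0.0171). The summed level of the 18 listed genes in the table was 354.7 to 581.4 CPM on laminin plus myelin, 361.1 to 1024 CPM on Myelin, 125.0 to 157.3 CPM on Laminin and 116.0 to 144.1 CPM on PDL, and 0 of them were at 0 on any coat. Mbp made up much of the sum with myelin, at 222.4 to 396.9 CPM on laminin plus myelin and 232.7 to 748.0 CPM on Myelin. On Laminin Mbp was at 31.6 to 44.0 CPM and on PDL at 27.5 to 35.9 CPM. Messenger RNAs such as Mbp and Mobp are known to be carried into the myelin sheath. Wells with the myelin coat and no cells were collected, per the labels, and were not analysed here, and what part RNA of the coat has in the counts of S100b and Gfap was not tested. Dip2a, which overlaps S100b on the other strand, differed by -0.17 ± 0.09 with myelin (edgeR adjusted p = 0.465), with 78.6 to 94.7 CPM in libraries with myelin and 76.2 to 119.5 CPM in those without.

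The other mature genes gave smaller or no called differences. Clu (chromosome 14, 65968483 to 65981547), a secreted chaperone, was at 3.43, 5.05 and 6.60 CPM on laminin plus myelin, at 3.26, 4.58 and 7.90 CPM on Myelin, at 3.05, 3.24 and 3.25 CPM on Laminin and at 2.58, 3.18 and 3.62 CPM on PDL. It was higher with myelin in all 6 pairs of the same number, as were S100b, Gfap and Aqp4 and as were 5.27% of all genes, but its groups overlapped. The averaged difference of Clu was 0.70 ± 0.22 (edgeR adjusted p = 0.187), and 0.66 ± 0.14 with the block (edgeR adjusted p = 0.0174), a call kept in 7 of 12 fits that each left out 1 library. Against PDL, Clu was called on Myelin with the block (0.70 ± 0.19, edgeR adjusted p = 0.0324). That call was lost without Myelin replicate 2 or 3 or any 1 of the PDL libraries (edgeR adjusted p up to 0.18).

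Aqp4 had 11, 30 and 20 counts on laminin plus myelin, 11, 8 and 16 on Myelin, 6, 6 and 3 on Laminin and 8, 4 and 13 on PDL. The laminin plus myelin libraries all lay above the Laminin libraries, as was so for 2.00% of genes, and Myelin overlapped PDL. The difference of laminin plus myelin against Laminin was 2.04 ± 0.55 (edgeR adjusted p = 1.00; 0.342 with the block), and the interaction of 1.60 ± 0.77 did not pass (edgeR adjusted p = 0.733). Slc1a2 was at 894.3, 829.3 and 750.1 CPM on laminin plus myelin, at 868.1, 901.2 and 732.6 CPM on Myelin, at 717.6, 803.2 and 737.5 CPM on Laminin and at 908.7, 740.0 and 699.1 CPM on PDL. Its coats overlapped throughout, and the averaged difference was 0.11 ± 0.08 (edgeR adjusted p = 0.661), the narrowest error of the mature set.

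Among the genes shared with radial glia, Glul alone had a called difference between coats. Glutamine synthetase turns the glutamate that astrocytes take up into glutamine. Its transcript (chromosome 1, 153899944 to 153909723) was at 158.6, 161.4 and 167.1 CPM on laminin plus myelin, at 162.9, 174.7 and 166.1 CPM on Myelin, at 171.3, 143.5 and 146.2 CPM on Laminin and at 135.2, 123.4 and 128.5 CPM on PDL. All 9 libraries with laminin, myelin or both lay above the 3 PDL libraries, as was so for 5.34% of genes. Glul rose on Myelin against PDL by 0.38 ± 0.08 (edgeR adjusted p = 0.035), and differed by 0.25 ± 0.08 on Laminin against PDL (edgeR adjusted p = 0.192; 0.0532 with the block) and by 0.08 ± 0.08 on laminin plus myelin against Laminin (edgeR adjusted p = 1.00). The interaction was -0.30 ± 0.11 (edgeR adjusted p = 0.733). Averaged over laminin it differed by 0.23 ± 0.06 (edgeR adjusted p = 0.105), and was called with the block (edgeR adjusted p = 0.0214).

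The share of counts outside annotated genes ran parallel to this pattern, at 8.46% to 13.7% in the 9 coated libraries and 17.4% to 19.4% on PDL. With that share as a covariate the Glul difference of Myelin over PDL was 0.09 (edgeR adjusted p = 0.74). The share parts PDL from every other coat, so this fit cannot tell the share from the coat. For Myelin against PDL it called 0 of all genes, against 360 without the covariate. The same covariate left 4.53 for S100b and 4.05 for Gfap averaged over laminin, with edgeR adjusted p-values of 0.211 and 0.327. Together with the block it left 3.29 for S100b (edgeR adjusted p = 0.00145) and 2.82 for Gfap (edgeR adjusted p = 0.234). The call of Glul on Myelin against PDL was also lost without 10 of the 12 libraries in turn, up to an adjusted p of 0.215 without Myelin replicate 2; with the block it was lost without 2 of them. Laminin against PDL called 0 members with or without the block or in DESeq2 (1 at an unadjusted p under 0.05); without the block 0 of all genes passed in edgeR (2735 at an unadjusted p under 0.05, and 485 in DESeq2), and with it 2.66% were called higher and 5.48% lower.

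The remaining 4 genes shared with radial glia overlapped between all coats and passed in none of the 5 comparisons with all 12 libraries, with or without the block. In the blocked fit without Laminin replicate 1, all 4 were called higher for the averaged effect (edgeR adjusted p of 0.00229 to 0.00995), where 4795 genes were called, against 1358 with all libraries. Slc1a3 and Aldh1l1 were also called in the blocked fit without laminin plus myelin replicate 1 (edgeR adjusted p = 0.0344 and 0.0245). Slc1a3 (chromosome 15, 8634124 to 8710764), the glutamate transporter GLAST, was at 38.0, 37.2 and 64.5 CPM on laminin plus myelin, at 42.4, 31.5 and 63.7 CPM on Myelin, at 40.6, 28.7 and 53.6 CPM on Laminin and at 38.6, 28.04 and 55.9 CPM on PDL. Its averaged myelin difference was 0.18 ± 0.24, and 0.17 ± 0.06 with the block (edgeR adjusted p = 0.858 and 0.0975). Fabp7 differed by 0.19 ± 0.23, Gja1, which encodes the gap junction protein connexin 43, by 0.32 ± 0.22, and Aldh1l1, a folate enzyme used to mark astrocytes of all regions, by 0.57 ± 0.25 (edgeR adjusted p of 0.843, 0.621 and 0.35; 0.399, 0.216 and 0.0795 with the block). The median averaged difference was 0.23 over the 5 shared genes and 1.24 over the 5 mature genes, beside -0.0026 over all genes. The 1.24 is the value of Aqp4, the middle gene of the mature set, which was not called and had 3 to 30 counts per library. All 10 values were above 0 in this fit, and that of Fabp7 was -0.11 with the outside-gene share as a covariate.

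Slc1a3 separated by replicate number and not by coat. It averaged 39.9, 31.4 and 59.4 CPM over the 4 coats in replicates 1, 2 and 3, and on each of the 4 coats replicate 3 was highest and replicate 2 lowest. Between numbers its ranges did not overlap (38.0 to 42.4, 28.04 to 37.2 and 53.6 to 64.5 CPM). Gja1 and Clu were likewise highest in replicate 3 on all 4 coats, Fabp7 on 3 coats (Laminin being highest in replicate 1) and Aldh1l1 on 2. Slc1a2 went the other way on 3 coats, where replicate 3 was lowest. Sox2, Vim and Nes, a transcription factor and filament proteins of neural progenitors, were highest in replicate 3 on all 4 coats, with means of 24.3, 26.9 and 44.0 CPM for Sox2 in replicates 1, 2 and 3. The labels do not say what a number stands for.

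**Figure D4:**
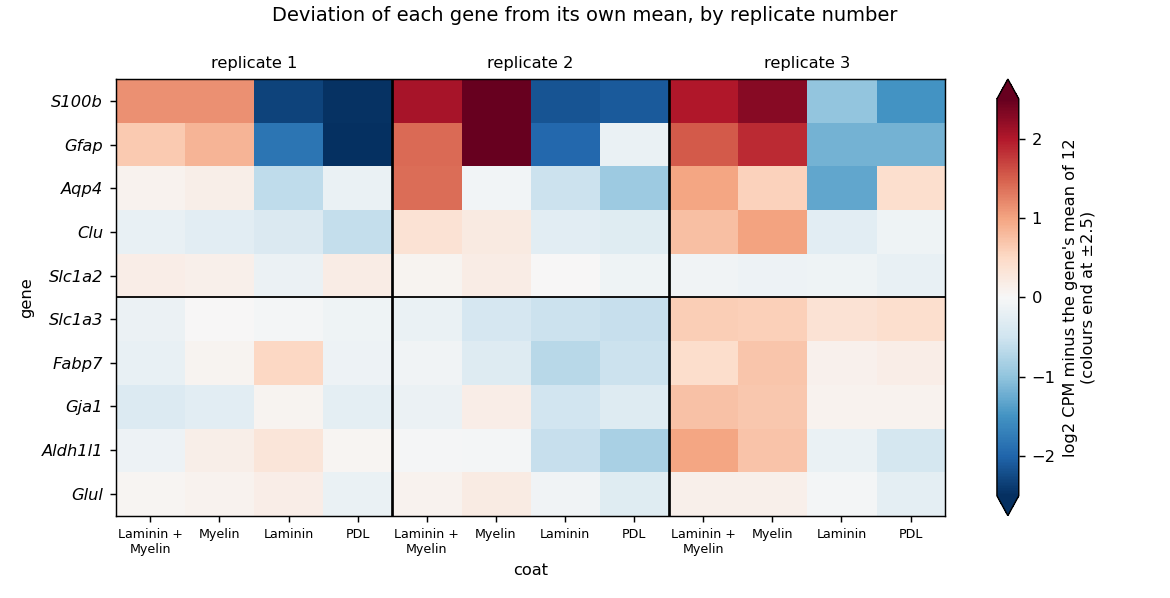
Log2 CPM of each gene minus its own mean over the 12 libraries (colour), with libraries ordered by replicate number and then by coat; colours end at 2.5 in either direction. S100b and Gfap change with myelin inside each number, while Slc1a3, Fabp7 and Gja1 are mostly above their mean in replicate 3 on every coat.

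The genes whose log2 CPM followed Slc1a3 most closely over the 12 libraries were Ednrb, the endothelin B receptor, Acot1, Gas1, Cdca2 and Gfra1 (Pearson r from 0.966 to 0.945). For these 5 genes r was 0.941 to 0.994 within the 6 libraries with myelin and 0.934 to 0.982 within the 6 without. Among the members, Slc1a3 correlated with Fabp7 at 0.863 and with Gja1 at 0.795, but with Slc1a2 at -0.478. Slc1a3 correlated with S100b at 0.286 and with Gfap at 0.174. The points share replicate numbers and coats, so these are descriptions.

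Beyond the 10 members, 22 further astrocyte genes of a list of 26 could be tested. For the averaged myelin effect 0 of the 22 passed in edgeR without the block (4 at an unadjusted p under 0.05, and 3 of 26 called in DESeq2), 19 had a value above 0, and their median was 0.32. With the block, where 3.03% of all genes were called higher and 5.60% lower, 6 rose and 0 fell. Among them were Apoe, the main lipid carrier of the brain, Atp1b2, a subunit of the sodium pump, Sparcl1, which acts on synapses, Cbs, an enzyme of transsulfuration, and Aldoc, an enzyme of glycolysis. Apoe was the clearest, at 11.2 to 38.0 CPM in libraries with myelin (median 25.8) and 5.60 to 15.7 CPM in those without (median 11.2), and its blocked difference was 1.19 ± 0.11 (edgeR adjusted p = 0.00032). Aldoc differed by 0.87 ± 0.20 and Atp1b2 by 0.38 ± 0.06 in the same fit (edgeR adjusted p = 0.0255 and 0.00734). Gjb6, connexin 30, was at 0 in all Laminin libraries and above 0 on each other coat, where its counts are not reported here. The zero alone is no measure of a difference between coats.

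Of 26 regulators of astrocyte formation, 0 passed in edgeR without the block (7 at an unadjusted p under 0.05, and 2 called in DESeq2), with 19 above 0 and a median of 0.16. With the block, where 3.03% of all genes were called higher and 5.60% lower, 7 rose and 0 fell. Those that rose were led by Stat3, Socs3, Nfib, Il6st, Id3 and Bmpr1a. Stat3 was at 102.2 to 207.3 CPM in libraries with myelin and 61.8 to 88.7 CPM in those without. Its libraries with myelin all lay above those without, as was so for 0.426% of genes tested. Its averaged difference was 1.13 ± 0.20 (edgeR adjusted p = 0.0785) and 1.08 ± 0.09 with the block (edgeR adjusted p = 8.7e-05). Socs3, which STAT3 induces and which feeds back on the receptor, differed by 0.65 ± 0.09, Il6st, the shared receptor chain gp130, by 0.23 ± 0.05 and Nfib by 0.31 ± 0.06 (blocked edgeR adjusted p = 0.00471, 0.0203 and 0.0141). Of 20 genes of radial glia and progenitors, 0 passed without the block (4 at an unadjusted p under 0.05, and 1 called in DESeq2) and 4 rose with it (Ddah1, Sox1, Sox2 and Prom1), Sox2 by 0.30 ± 0.06 (edgeR adjusted p = 0.0187).

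Markers of other cells were read beside these lists. Of 15 genes of microglia and macrophages 0 passed in edgeR for the averaged effect (6 at an unadjusted p under 0.05, and 2 called in DESeq2). With the block, where 3.03% of all genes were called higher and 5.60% lower, 8 rose. Trem2, a lipid receptor, led them (2.78 ± 0.18, edgeR adjusted p = 5.34e-06). All 6 Trem2 libraries with myelin lay above all 6 without it, as was so for 0.426% of genes tested. Its counts were 2 to 21 per library without myelin. For Myelin against PDL without the block, Trem2 was the 1 gene of the 15 called (3.31 ± 0.72, edgeR adjusted p = 0.0408), where 0.146% of genes were called higher. The summed level of the 15 genes was 43.4 to 191.5 CPM on laminin plus myelin and 51.6 to 202.1 CPM on Myelin. It was 50.05 to 148.3 CPM on Laminin and 44.2 to 117.8 CPM on PDL. Of 10 genes of oligodendrocyte precursors 2 rose and 1 fell with the block, and of 12 pan-neuronal genes 4 rose. Of 8 Schwann lineage genes 3 rose with the block. Of 8 endothelial and mural genes 1 rose, and of 8 mesenchymal and 3 ependymal genes 0 did. Without the block 0 genes of these 7 lists passed in edgeR for the averaged effect; in DESeq2 2 did among oligodendrocyte precursor, 2 among Schwann lineage and 1 among endothelial and mural genes. What part these cells have in the differences of the astrocyte genes was not tested.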

How the data were processed

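Libraries were paired-end and prepared with a TruSeq kit, per the labels. The deposited table gave whole-number counts of each gene without normalization by the authors, and the authors' own log2 fold changes and adjusted p-values. CASAVA 1.8.2, edgeR, mm10 and GRCm38 are named in the submitters' processing notes; aligner, counter, annotation and strandedness are not given in the sources here. The authors' 12 normalized columns were not used. Of 21033 entries, 3 name no gene and were left out (reads outside genes, 8.46% to 19.4% of counts; aligned to several places, 11.5% to 13.6%; matching several genes, 0.579% to 0.717%). Of 27 symbols turned into dates, 25 were restored. Depth was 36061511 to 45024091 counts in genes per library.

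Counts were tested in R 4.3.3 with edgeR 4.0.16 (filterByExpr, 15737 genes, TMM factors, robust quasi-likelihood fit of all 12 libraries, a coefficient per coat, no block); DESeq2 1.42.0 was an alternative. P-values were adjusted over all genes by the Benjamini-Hochberg method at 0.05, and SE is the size of the log2 fold change divided by the square root of F. CPM values are TMM-scaled, and likeness used log2 CPM (prior count 2). Exon lengths and gene coordinates are from GENCODE M21 on GRCm38. Replicates of a coat differed beyond sampling noise (chi-square per degree of freedom 18.5 to 73.7). To see whether replicate numbers pair the libraries, deviations from coat means were correlated: r was 0.218 to 0.830 in the 18 same-number pairs and -0.770 to 0.243 in the 36 others. The pairing is thus read from the counts, not the labels. The edgeR biological coefficient of variation fell to 0.0901 with the number as a block, against 0.205. Blocked values stand beside results whose call or count they change.

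The members and the gene lists were chosen with earlier results of these data known. Named beyond the members were listed genes that passed (up to 6 a list by smallest p), fixed context genes of myelin, microglia and progenitors, and the 5 genes most like S100b, Gfap and Slc1a3. Dip2a and Gjb6 were added after their values were seen. A few listed genes are counted but not reported by name here.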

Additional observations from a re-analysis of the deposited data

How the results depend on the processing

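The number of members called, without the block, was 1 averaged over laminin, 3 for Myelin against PDL and 0 for laminin plus myelin against Laminin. With the replicate number as a block the counts were 4, 4 and 2 members, and 1358, 2268, 16 and 1282 genes in all (the last for Laminin against PDL), against 4, 360, 3 and 0 without it. With DESeq2 they were 3, 3 and 2 members and 583, 1048, 7 and 485 genes, with 3 genes for the interaction. Without the filter on low counts they were 2, 3 and 0 members and 6, 288 and 2 genes. With the outside-gene share of reads as a covariate 0, 0 and 0 members and 0, 0 and 2 genes were called, and with the block and that share 1, 0 and 2 members and 7, 0 and 42 genes. Leaving out 1 library in turn, with or without the block, gave 1 to 9, 0 to 6, 0 to 3 and 0 to 1 members and 4 to 4795, 2 to 5210, 0 to 186 and 0 to 2481 genes in those 4 comparisons, and 0 members and 0 to 83 genes for the interaction. The 9 members and 4795 genes came without Laminin replicate 1, with the block. DESeq2 size factors in edgeR left the member counts as they were and turned Slc1a3 for Laminin against PDL to -0.0025. The other reversals came from the 2 covariate fits and from single libraries left out. With the covariate alone Fabp7 was at -0.106 averaged and -0.248 for Myelin against PDL, and for Laminin against PDL Gfap was at 0.748, Fabp7 at -0.409, Aldh1l1 at -0.305 and Glul at -0.0254; the Gfap interaction was -1.49. With the block as well, Fabp7 was at -0.317 and Gja1 at -0.182 averaged; for Myelin against PDL, Aqp4 was at -1.06, Slc1a3 at -0.0878, Fabp7 at -0.673, Gja1 at -0.523 and Aldh1l1 at -0.174. For Laminin against PDL that fit gave S100b -0.662, Slc1a2 0.18, Clu -0.376, Slc1a3 -0.223, Fabp7 -0.781, Gja1 -0.757, Aldh1l1 -0.538 and Glul -0.0944, and interactions of 0.305 for S100b and 0.059 for Glul; the cause was not tested. Leaving out 1 library turned signs of uncalled values: for Myelin against PDL Slc1a3 spanned -0.143 to 0.461; for laminin plus myelin against Laminin Slc1a3 spanned -0.123 to 0.426, Fabp7 -0.243 to 0.397 and Gja1 -0.166 to 0.451. For Laminin against PDL the spans were -1.24 to 0.116 for Gfap, -0.281 to 0.691 for S100b, -0.13 to 0.0679 for Slc1a2, -0.159 to 0.263 for Clu, -0.236 to 0.297 for Slc1a3, -0.171 to 0.469 for Fabp7, -0.183 to 0.242 for Gja1 and -0.0291 to 0.551 for Aldh1l1, and the Gfap interaction spanned -0.778 to 0.582. The CPM levels moved by less than 1 SD without TMM scaling in 40 of 40 cases. S100b and Gfap averaged over laminin kept their sign in every setting run. Low counts, 3 to 30 per library for Aqp4 and 2 to 18 for Gfap without myelin, limit those values.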
